A study of Mus musculus with 23 samples.

Results

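Shelterin and telomerase are represented by 9 mouse genes chosen by name. They are Terf1, Terf2, Terf2ip, Pot1a, Pot1b, Tinf2 and Acd of the shelterin complex, Tert, the reverse transcriptase of telomerase, and Rtel1, a telomere helicase. Of these, 8 had a probe on the array, out of 18217 genes that did. The 8 genes had 13 probes in all, and every one of the 8 genes passed the filter for signal above background, among 13765 genes tested. No probe was matched to Acd, which encodes the shelterin subunit that recruits telomerase, so its level is not analysed here.

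Telomeres are the repeat-capped ends of chromosomes. Shelterin binds them: TERF1 and TERF2 hold the double-stranded repeats, POT1 proteins the single-stranded overhang, and TINF2 and ACD bridge these proteins. Shelterin keeps the ends from being read as DNA breaks, and TERF2 in particular restrains the ATM kinase there. Telomerase adds repeats by copying its RNA subunit, Terc, and RTEL1 unwinds secondary structures of telomeric DNA during replication.

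RNA from 22 samples was measured on 23 one-colour Agilent arrays. There were 9 Atm knockout, Cd3e knockout B cell lymphoma lines, each grown in suspension from a tumour-bearing spleen, 6 spleens without tumours from Atm knockout, Cd3e knockout mice, and 7 spleens from Atm wild-type, Cd3e knockout mice. Every group was thus deficient in Cd3e, which T cells need for receptor signalling, and all mice were of C57BL/6 x 129 strain. The knockout spleens were all from females, the wild-type spleens were from 4 males and 3 females, and the sex of the lines and the age of the mice are not given in the sources used here. Levels are log2 processed signals relative to the 75th percentile of the same array. A level of 0 is therefore the signal that 75% of probes do not exceed, and levels of different probes are not compared.

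Lymphoma line 8 was measured on 2 arrays that carry the same title, one marked as a repeat, and its value is their mean. The design text of the series counts 10 lines, which is the number of line arrays. Whether these 2 arrays are of 1 line is therefore not settled here. Those arrays differed as much as arrays of different lines did. After each gene was centred over the line arrays their correlation was 0.045 and their log2 difference had an SD of 1.033 across genes, against −0.348 to 0.075 and 0.95 to 1.363 for 43 other pairs. Tinf2 stood at 2.96 on the first array of line 8 and at 1.80 on the repeat, and Tert at −2.60 on the first and −1.47 on the repeat. Lines 4 and 5 were instead more alike than any other pair, with a correlation of 0.65 and an SD of 0.712. Counts of called members were the same with either array of line 8 alone, with the arrays as separate lines, without line 8, and with lines 4 and 5 averaged.

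The promoter windows of RefSeq (GRCm38.p6, 250 bases before to 50 bases after the gene start) show where 3 members that rose in the lines, 1 that fell and the telomerase gene Tert begin. Terf2ip lies at chr8:112011109-112011408 on the plus strand, Tinf2 at chr14:55681768-55682067 on the minus strand, Rtel1 at chr2:181319474-181319773 on the plus strand, Pot1b at chr17:55712587-55712886 on the minus strand and Tert at chr13:73626661-73626960 on the plus strand. Capitals mark the GC box GGGCGG, the E-box CACGTG and the E2F-like motif TTTNNCGC, each searched on both strands and none overlapping another here.
Terf2ip: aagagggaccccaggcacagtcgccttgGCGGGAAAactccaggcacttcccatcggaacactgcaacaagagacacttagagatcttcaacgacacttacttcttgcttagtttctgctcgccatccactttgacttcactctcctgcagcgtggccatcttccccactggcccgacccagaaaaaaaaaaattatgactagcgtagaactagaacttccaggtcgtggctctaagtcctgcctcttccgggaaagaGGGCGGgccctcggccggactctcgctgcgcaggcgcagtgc
Tinf2: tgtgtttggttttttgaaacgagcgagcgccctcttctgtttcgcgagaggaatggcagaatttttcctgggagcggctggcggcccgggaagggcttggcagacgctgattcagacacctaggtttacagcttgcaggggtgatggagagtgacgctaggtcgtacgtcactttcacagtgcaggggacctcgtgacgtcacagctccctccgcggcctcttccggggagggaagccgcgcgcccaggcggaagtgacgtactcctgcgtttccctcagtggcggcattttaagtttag
Rtel1: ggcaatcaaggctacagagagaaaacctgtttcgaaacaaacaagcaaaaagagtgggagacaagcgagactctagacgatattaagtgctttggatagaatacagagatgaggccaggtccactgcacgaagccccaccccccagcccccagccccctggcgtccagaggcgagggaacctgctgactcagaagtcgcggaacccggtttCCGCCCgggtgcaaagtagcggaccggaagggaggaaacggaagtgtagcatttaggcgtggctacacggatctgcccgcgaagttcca
Pot1b: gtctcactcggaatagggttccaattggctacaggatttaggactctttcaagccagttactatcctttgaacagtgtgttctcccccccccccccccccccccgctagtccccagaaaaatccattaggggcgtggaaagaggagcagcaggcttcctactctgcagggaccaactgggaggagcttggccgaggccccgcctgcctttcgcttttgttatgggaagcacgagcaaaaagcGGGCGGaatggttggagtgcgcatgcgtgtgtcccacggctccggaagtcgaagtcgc
Tert: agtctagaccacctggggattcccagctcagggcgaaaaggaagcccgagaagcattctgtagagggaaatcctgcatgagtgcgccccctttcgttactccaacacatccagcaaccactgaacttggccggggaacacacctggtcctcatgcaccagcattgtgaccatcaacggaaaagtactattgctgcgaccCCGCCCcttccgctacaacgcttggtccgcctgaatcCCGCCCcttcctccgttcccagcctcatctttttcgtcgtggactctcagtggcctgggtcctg

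A window was found for 8 of the 9 members, all but Terf1. These 8 include Acd, which was not measured, so they are not the 8 measured members. The GC box was present in 6 of 8 member windows, namely those of Rtel1, Pot1a, Terf2, Terf2ip, Tert and Pot1b, against 35.9% of 27025 promoter windows. The Tert window held it at 2 places. The E2F-like motif was in 1 of 8, Terf2ip, against 5.3% of all windows. The E-box was in 0 of 8, against 7.2% of all windows. The GC content was 57.3% for Tert and 58.7% for Tinf2, against a median of 52.7% over all windows.

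The labels were checked against marker genes. Atm, the deleted kinase, averaged −3.34 ± 0.54 in lines (SD, n = 9), −2.39 ± 0.22 in knockout spleens (n = 6) and −0.19 ± 0.23 in wild-type spleens (n = 7), with no overlap between genotypes. Cd3e averaged −2.34 ± 0.65 in lines, −4.21 ± 0.30 in knockout spleens and −4.21 ± 0.24 in wild-type spleens. This cannot check the Cd3e label, since no group had intact Cd3e. The Cd3e probe was well above background in every sample. It was higher in lines by 1.87 against each group of spleens, without overlap (limma adjusted p = 5.04e-07 and 2.31e-07). Whether these probes lie in the deleted parts is not given in the sources used here. All 8 B cell markers were above background in every sample, and their mean level spanned 3.04 to 3.79 in lines, 3.13 to 3.69 in knockout and 3.12 to 3.72 in wild-type spleens. Most markers of other spleen cell types were far lower in the lines. The 7 neutrophil markers averaged between −8.13 and −4.37 in lines, between 3.08 and 5.89 in knockout spleens, and between 2.60 and 6.17 in wild-type spleens. The 7 macrophage markers averaged between −5.94 and −4.12 in lines, with 2.28 to 3.02 in knockout and 2.50 to 3.16 in wild-type spleens. The 8 erythroid markers averaged between −6.45 and −4.47 in lines, with 0.45 to 3.74 in knockout and 0.50 to 3.06 in wild-type spleens. Against knockout spleens, 5 of 6 T cell, 6 of 6 NK cell, 4 of 5 platelet and 4 of 5 stromal markers were also called lower in lines. The fifth stromal marker, the endothelial cadherin Cdh5, was called higher, by 1.19 against knockout spleens (limma adjusted p = 0.000458) and 1.103 against wild-type spleens (limma adjusted p = 0.000609). With normexp background correction, 0 of 5 stromal markers were called higher and 2 lower in each comparison. That alternative called 3 of 6 T cell markers lower in each, and the share of all genes called under it is not given here. Averaged over a list, the highest mean of any line for any of these lists was −4.12, for the macrophage markers. Fewer cells of a type and less RNA per cell cannot be told apart in such samples. The part of these cells in the differences between lines and spleens was not tested.

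In the lines, 4 of 8 members rose against knockout spleens and 1 fell, at a limma adjusted p under 0.05 over all genes tested. The same rule called 41.5% of all genes higher and 28.9% lower, so calls between lines and spleens were common over the whole array. Against wild-type spleens 3 of 8 members rose and 1 fell, beside 40.3% of all genes higher and 30.9% lower. The median log2 difference of the 8 members was 0.48 against knockout spleens, with 0.18 over all genes, and 0.28 against wild-type spleens, with 0.14 over all genes. Tinf2, Terf1 and Rtel1 rose and Pot1b fell in both comparisons, which share the lines, and Terf2ip rose against knockout spleens. Centring arrays on their median in place of the 75th percentile moved the median of all genes to 0.77 and 0.71, and then 7 of 8 members were called higher and 0 lower in each comparison. The share of all genes called under that centring is not given here, so this count is not read as a result about the members.

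**Figure D1:**
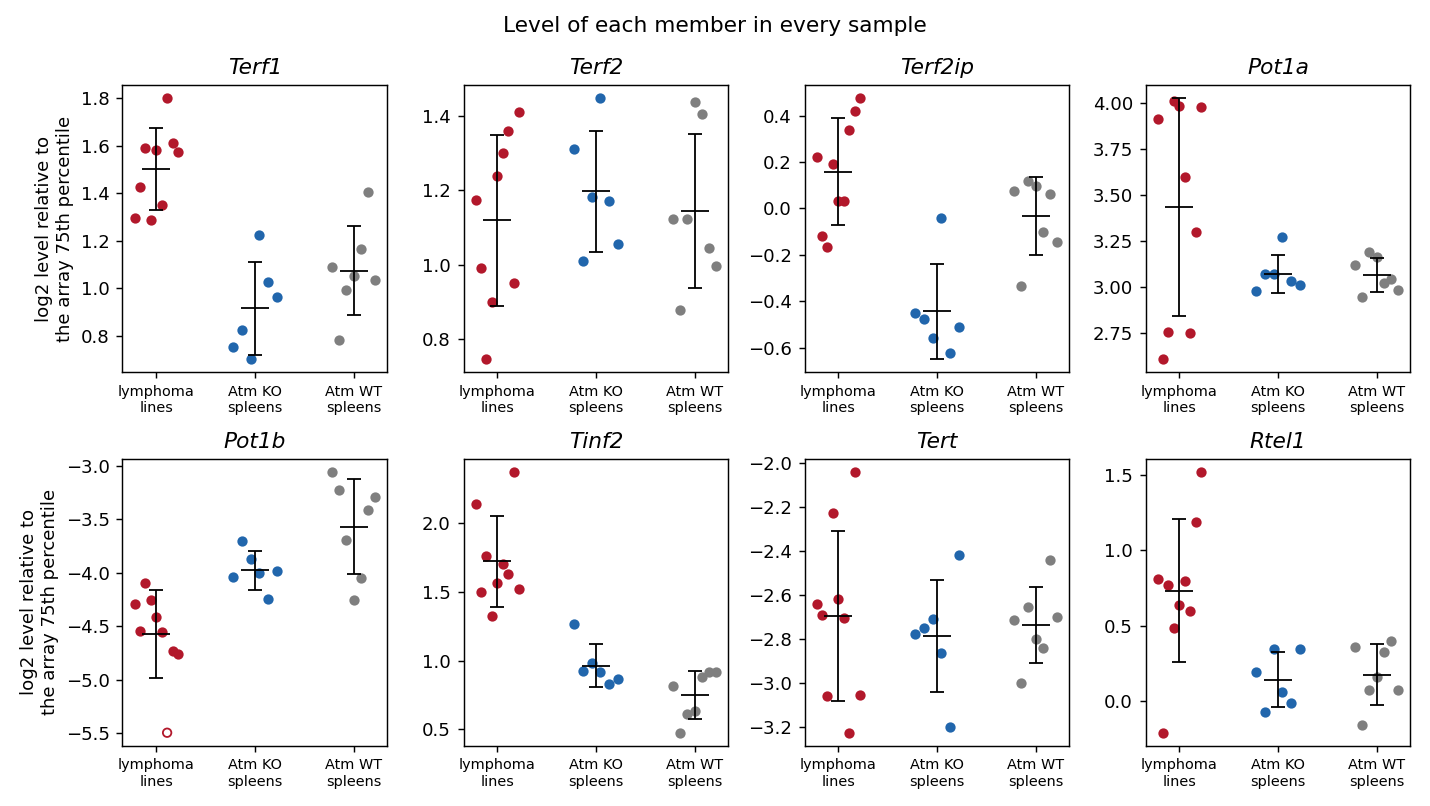
Log2 level of the 8 measured genes in each sample, relative to the array's 75th percentile, with points for single samples and black bars for the mean and SD of 9 lymphoma lines, 6 Atm knockout spleens and 7 Atm wild-type spleens. Tinf2 was higher in all 9 lines than in all 13 spleens, and the lines split above and below the spleens for Pot1a; the open point marks a Pot1b value that was not well above background.

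Tinf2, whose product bridges TERF1, TERF2 and the ACD-POT1 pair at the centre of shelterin, differed between lines and spleens without overlap. Its level had a lowest, median and highest value of 1.33, 1.63 and 2.38 in lines, 0.83, 0.92 and 1.27 in knockout spleens, and 0.48, 0.82 and 0.92 in wild-type spleens. In all, 9 of 9 lines lay above all 13 spleens. It was 1.69-fold higher in lines than in knockout spleens (log2 difference 0.76 ± 0.14 SE, adjusted p = 3.63e-05) and 1.96-fold higher than in wild-type spleens (0.97 ± 0.13, adjusted p = 7.11e-07). With line 8 from its first array alone the difference from knockout spleens was 0.82, and with its repeat array alone it was 0.70. On 5 slides that held both lines and spleens, the difference was positive on each, from 0.54 to 0.87 against knockout spleens and from 0.52 to 1.29 against wild-type spleens.

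Terf1 encodes the repeat-binding subunit known as a negative regulator of telomere length. Its level was 1.29, 1.58 and 1.80 in lines (lowest, median, highest), 0.70, 0.89 and 1.22 in knockout spleens, and 0.78, 1.05 and 1.41 in wild-type spleens. No line overlapped the knockout spleens, while 3 lines fell within the range of the wild-type spleens. The log2 difference was 0.59 ± 0.11 (adjusted p = 3.63e-05) against knockout spleens and 0.43 ± 0.10 (adjusted p = 0.000629) against wild-type spleens. On the 5 slides it was positive on each, from 0.33 to 0.67 and from 0.03 to 0.65. Together with Tinf2, Terf1 made 2 of 8 members with groups apart and higher in lines than in knockout spleens, where 24% of all genes were. None lay apart and lower, where 16.8% of all genes did. Against wild-type spleens Tinf2 was the 1 member with groups apart, where 23.8% of all genes were apart and higher and 18% apart and lower.

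Terf2, the subunit that holds the end in a protected loop, depended on the probe. The probe with the highest mean, A_51_P458086, stood at 0.75, 1.18 and 1.41 in lines, 1.01, 1.18 and 1.45 in knockout spleens, and 0.88, 1.12 and 1.44 in wild-type spleens, and the groups overlapped. Its log2 difference was −0.08 ± 0.12 (adjusted p = 0.562) against knockout spleens and −0.03 ± 0.11 (adjusted p = 0.853) against wild-type spleens. The probe A_52_P427544 gave 0.02 and 0.01 and was not called. The reading of A_51_P458086 depended on the scaling: median centring called it higher, by 0.51 (adjusted p = 0.00288) and 0.55 (adjusted p = 0.00105), and quantile normalisation called it lower against knockout spleens, at −0.26 (adjusted p = 0.0438). The other two did pass the test.

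The probe A_52_P580017 of Terf2 read −0.68, −0.15 and 0.32 in lines, −1.41, −0.99 and −0.73 in knockout spleens, and −1.39, −1.04 and −0.71 in wild-type spleens, with no line overlapping a spleen. It was higher in lines by 0.85 ± 0.15 (adjusted p = 4.11e-05, over all probes tested) and 0.83 ± 0.15 (adjusted p = 2.58e-05). The probe A_52_P391210 was higher by 0.68 ± 0.14 (adjusted p = 0.000157) and 0.69 ± 0.13 (adjusted p = 7.71e-05). Within an array, A_52_P580017 stood relative to A_51_P458086 between −1.67 and −0.81 in lines, between −2.42 and −1.89 in knockout spleens, and between −2.44 and −1.75 in wild-type spleens. The probes of this gene thus changed unequally whatever shift is applied to a whole array. The exons that each probe covers are not given in the sources used here.

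**Figure D2:**
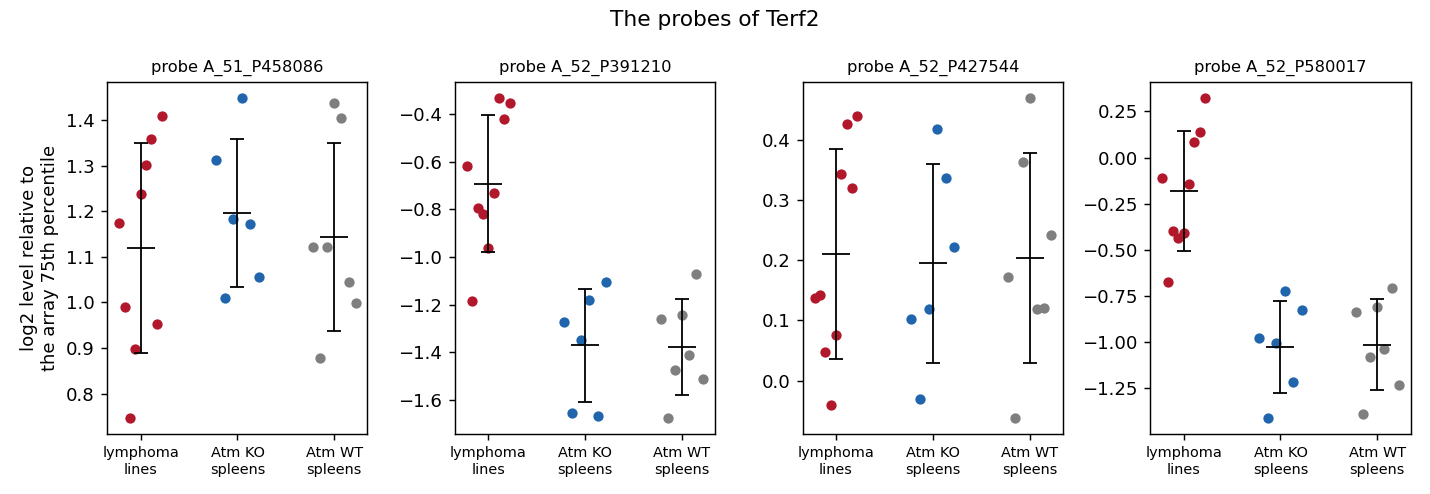
Log2 level of each of the Terf2 probes in every sample, relative to the array's 75th percentile, with the mean and SD of 9 lymphoma lines, 6 Atm knockout spleens and 7 Atm wild-type spleens. The groups overlapped for A_51_P458086 and A_52_P427544, and the lines lay above all spleens for A_52_P580017.

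Terf2ip encodes RAP1, which reaches telomeres by binding TERF2. Its level was −0.17, 0.19 and 0.48 in lines, −0.62, −0.49 and −0.04 in knockout spleens, and −0.33, 0.06 and 0.12 in wild-type spleens. In the lines 5 values lay above all spleens. It rose by 0.60 ± 0.11 against knockout spleens (adjusted p = 7.93e-05), and the difference from wild-type spleens was 0.19 ± 0.11 (adjusted p = 0.125). Its 3 probes gave the same direction, from 0.60 to 0.72 against knockout spleens and from 0.19 to 0.29 against wild-type spleens. On slide 4, which held 1 line and the knockout spleen with the highest value, the difference from knockout spleens was −0.13.

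Pot1a and Pot1b are a mouse pair of genes for which humans have a single POT1. Pot1a, the form known to repress damage signalling at the overhang, was the member on which the lines differed most from each other relative to the spleens. Its SD was 0.594 over 9 lines, 0.103 over 6 knockout spleens and 0.093 over 7 wild-type spleens. The lines spanned 2.61 to 4.01 with a median of 3.60, the knockout spleens 2.98 to 3.27 with a median of 3.05, and the wild-type spleens 2.94 to 3.19 with a median of 3.04. In lines 1, 4, 5, 6, 8 and 9 the level was above all 13 spleens, in lines 2, 3 and 7 it was below all of them, and 0 lines lay within the spleens' range.

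The spread of Pot1a among the lines covered 2.65-fold, beside 1.22-fold among knockout spleens and 1.19-fold among wild-type spleens. The mean difference was 0.36 ± 0.20 against knockout spleens (adjusted p = 0.116) and 0.37 ± 0.19 against wild-type spleens (adjusted p = 0.0943), and neither passed the test. Without line 2 the differences were 0.47 in each comparison (adjusted p = 0.0294 and 0.0216), and leaving out line 3 or line 7 also brought both past the threshold. Slide and line cannot be told apart on the slides with 1 line. There the difference from knockout spleens on the same slide ran from −0.51 on slide 4 to 0.94 on slide 2. On slide 5, which held lines 4 and 5, it was 0.99.

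Pot1b, the form known to limit the trimming of the end after replication, was a dim probe. It read −5.49, −4.54 and −4.10 in lines, −4.25, −3.99 and −3.70 in knockout spleens, and −4.25, −3.41 and −3.06 in wild-type spleens. It was well above background in 8 of 9 lines, all but line 7, and in all 13 spleens. In 7 of 9 lines it lay below every spleen. It fell in the lines, with log2 differences of −0.60 ± 0.20 against knockout spleens (adjusted p = 0.00969) and −1.003 ± 0.19 against wild-type spleens (adjusted p = 5.62e-05). The call ended with median centring in both comparisons (−0.01 and −0.43 with adjusted p of 0.974 and 0.0695), with quantile normalisation (−0.13 and −0.56 with adjusted p of 0.72 and 0.0816), and with normexp background correction, which gave 0.15 and −0.76. A slide term left −0.37 against knockout spleens (adjusted p = 0.0736).

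Within an array a shift shared by all probes cancels, while a scaling that depends on the signal, as in quantile normalisation, does not. The log2 ratio of Pot1b to Pot1a averaged −8.00 ± 0.61 in lines, −7.04 ± 0.20 in knockout spleens and −6.63 ± 0.49 in wild-type spleens. In an exact two-sided permutation test it was lower in lines by 0.96 against knockout spleens (adjusted p = 0.00749 over 9 comparisons, n = 9 and 6) and by 1.37 against wild-type spleens (adjusted p = 0.00288, n = 9 and 7). A negative ratio between probes does not rank their levels. The groups overlapped through lines 2 and 3, and with normexp background correction the differences were −0.09 (exact adjusted p = 0.918) and −1.28 (exact adjusted p = 0.104). With quantile normalisation Pot1b and Pot1a differed by −0.13 and 0.02 from knockout spleens and by −0.56 and 0.04 from wild-type spleens. The ratio was not tested under that normalisation.

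The log2 ratio of Terf2 to Terf1 was −0.38 ± 0.26 in lines, 0.28 ± 0.19 in knockout spleens and 0.07 ± 0.24 in wild-type spleens. It was lower in lines by 0.67 than in knockout spleens, with groups apart (exact permutation test, adjusted p = 0.0018), and by 0.45 than in wild-type spleens (adjusted p = 0.00566, exact permutation test). It rested on the chosen Terf2 probe: with the mean of all probes the differences were −0.22 (exact adjusted p = 0.106) and −0.05 (exact adjusted p = 0.578).

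Tert was low but well above background in all 22 samples. Its level was −3.23, −2.69 and −2.04 in lines, −3.20, −2.77 and −2.42 in knockout spleens, and −3.00, −2.72 and −2.44 in wild-type spleens. Lines 4 and 8 were above all spleens and line 7 was below them, while 6 lines lay within the spleens' range. The log2 difference was 0.09 (95% interval −0.24 to 0.42, adjusted p = 0.618) against knockout spleens and 0.04 (−0.27 to 0.36, adjusted p = 0.821) against wild-type spleens, in the limma fit. Relative to the median of all genes the differences were −0.09 in both comparisons. With median centring Tert was called higher, by 0.68 (adjusted p = 0.00223) and 0.62 (adjusted p = 0.00348), and with quantile normalisation by 0.44 (adjusted p = 0.0202) and 0.39 (adjusted p = 0.0291). With line 8 from its first array only, the difference from wild-type spleens was −0.02.

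**Figure D3:**
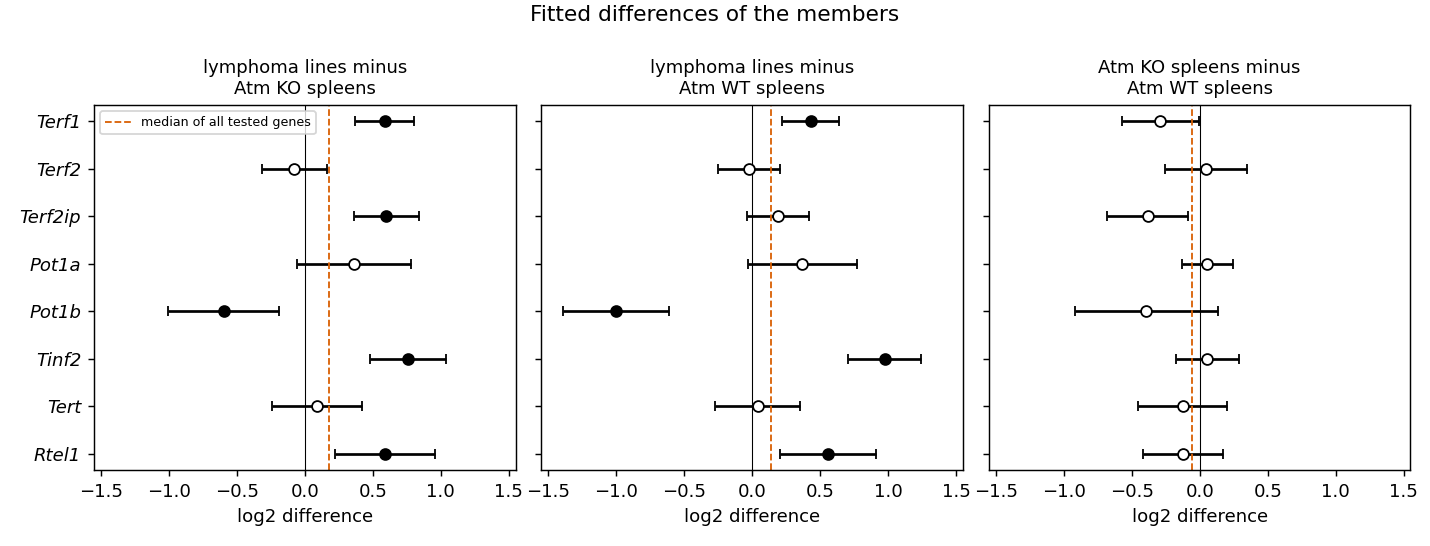
Fitted log2 differences of the 8 measured genes for lymphoma lines minus Atm knockout spleens, lymphoma lines minus Atm wild-type spleens and Atm knockout minus Atm wild-type spleens, with points for estimates, bars for 95% intervals, filled points for a limma adjusted p under 0.05 and a dashed line for the median of all 13765 genes. Tinf2, Terf1 and Rtel1 are filled and to the right in both line comparisons, Pot1b is filled and to the left, and no point is filled between genotypes.

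The RNA that telomerase copies differed between lines and spleens by more than any of the 8 members did. Terc read −4.50, −3.37 and −1.96 in lines, −3.25, −0.76 and 0.32 in knockout spleens, and −0.79, 0.02 and 0.75 in wild-type spleens. It was lower in lines by 2.57 on the log2 scale than in knockout spleens (5.92-fold, adjusted p = 3.61e-05) and by 3.49 than in wild-type spleens (11.2-fold, adjusted p = 2.9e-07, no overlap), in the limma fit. The overlap with knockout spleens came from 1 spleen, replicate 4, at −3.25, while the other 5 knockout spleens lay between −1.12 and 0.32. Terc remained lower under median centring (−1.98 and −2.92), quantile normalisation, normexp and a slide term. The labels state that cDNA was primed with oligo dT, and the mature telomerase RNA is known to lack a poly(A) tail; the part of priming in this difference was not tested.

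**Figure D4:**
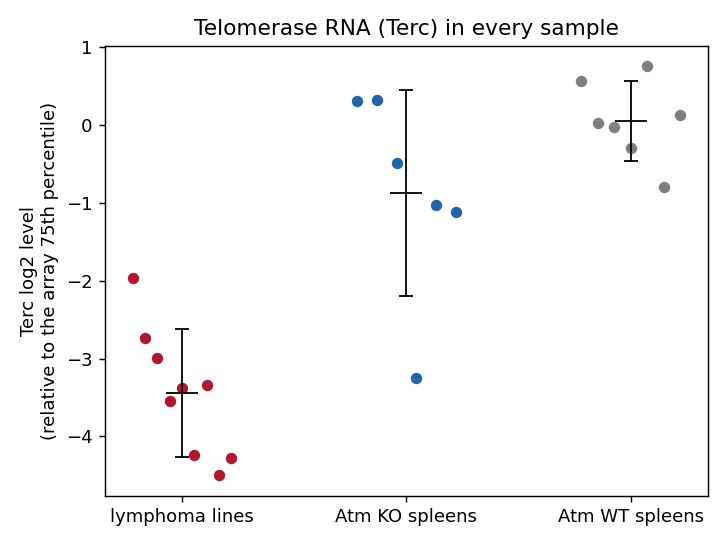
Log2 level of Terc, the telomerase RNA, in each sample relative to the array's 75th percentile, with the mean and SD of 9 lymphoma lines, 6 Atm knockout spleens and 7 Atm wild-type spleens. All 9 lines lay below all 7 wild-type spleens, and 1 knockout spleen, at −3.25, fell among the lines.

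Myc, a known activator of Tert transcription, averaged 2.63 ± 0.45 in lines, 5.33 ± 0.26 in knockout spleens and 4.69 ± 0.24 in wild-type spleens. It was lower in lines by 2.70 against knockout spleens (limma adjusted p = 1.76e-11) and by 2.05 against wild-type spleens (adjusted p = 6.51e-10). Across the 9 lines Tert and Myc had a Pearson r of 0.075 (exact permutation p = 0.855) and a Spearman rho of −0.05 (exact permutation p = 0.912), and r was 0.201 without lines 2 and 6.

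Rtel1 rose in the lines and followed their proliferation genes. Its level was −0.21, 0.77 and 1.52 in lines, −0.07, 0.13 and 0.35 in knockout spleens, and −0.16, 0.16 and 0.40 in wild-type spleens. Of the lines, 8 lay above all spleens and line 2 lay below all of them. The log2 difference was 0.59 ± 0.18 (adjusted p = 0.00561) against knockout spleens and 0.56 ± 0.17 (adjusted p = 0.00594) against wild-type spleens. On slide 3, which held line 2, the differences were −0.35 and −0.05, and with slide as a term the difference from knockout spleens was 0.34 (adjusted p = 0.078).

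Over the 9 lines, Rtel1 and the mean level of 15 proliferation genes, among them Mki67, Top2a and the Mcm helicase subunits, had a Pearson r of 0.98 (exact permutation p = 3.31e-05, adjusted p = 0.000298 over 9 relations) and a Spearman rho of 0.95 (exact permutation p = 0.000353). Line 2 was lowest on both, with proliferation genes at 2.94, and line 9 was highest on both, with proliferation genes at 4.46. Without these lines, the farthest from the median, r was 0.958. It was 0.98 without line 8 and 0.981 with lines 4 and 5 averaged, alternatives chosen after seeing the data. No slide held enough lines to recompute it: slide 1 held 3 lines and slide 5 held 2.

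The same relation was not seen within the spleens, where proliferation genes were lower, at 1.53 to 2.35 in knockout and 0.96 to 2.08 in wild-type spleens. There r was −0.493 in 6 knockout spleens (exact permutation p = 0.311; rho −0.543, exact p = 0.297) and −0.667 in 7 wild-type spleens (exact permutation p = 0.0933; rho −0.429, exact p = 0.354). Without the 2 spleens farthest from the median these came to −0.976 and −0.401. Whether r differed between lines and spleens was not tested. None of the other 7 members passed the adjusted threshold over the lines. The share of all genes that would pass is not given here, so the relation is not shown to be particular to Rtel1. Tinf2 came to r = 0.433, and to 0.862 without lines 2 and 9, while Tert came to −0.016. With median centring, which adds a shift shared by all genes of an array, Terf1 and Terf2ip also passed, with r of 0.842 and 0.848 (exact adjusted p = 0.0139 each). Terf2ip also passed with normexp background correction, at r = 0.813 (exact adjusted p = 0.0212), and came to 0.623 at the 75th percentile scaling (exact adjusted p = 0.318), or 0.174 there without lines 2 and 9.

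**Figure D5:**
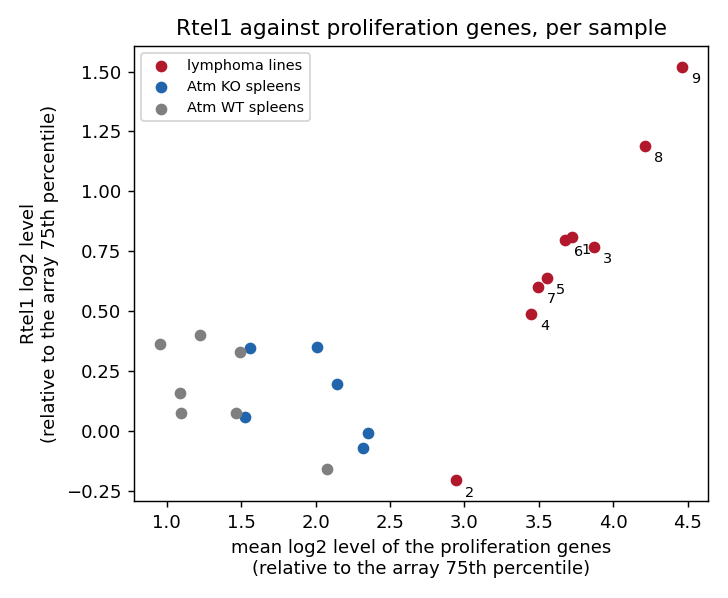
Rtel1 log2 level against the mean log2 level of 15 proliferation genes, both relative to the array's 75th percentile, with 1 point per sample and the lymphoma lines numbered. The 9 lines lie along a rising line from line 2 to line 9, while the 6 Atm knockout and 7 Atm wild-type spleens lie at lower proliferation levels and show no rising trend.

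Between the genotypes, 0 of 8 members passed the limma test with sex as a term, beside 1.64% of all genes called higher and 2.16% called lower in knockout spleens. Every knockout spleen was female, so the fitted differences compare 6 knockout with 3 female wild-type spleens. The male spleens add only to the estimate of the spread. At an unadjusted p under 0.05 there were 2 members, both lower in knockout spleens. The share of all genes at that looser rule is not given here, so this count is not read as a result about the members. Terf2ip was at −0.38 ± 0.14 (p = 0.0164, adjusted p = 0.145) and Terf1 at −0.29 ± 0.13 (p = 0.0449, adjusted p = 0.234). The groups overlapped for all 8, where 2.23% of all genes lay apart and higher and 2.09% apart and lower. Of the marker lists, the NK cell list had 4 of 6 genes lower in knockout spleens, with a mean level of 1.46 to 2.10 in knockout and 2.06 to 2.53 in wild-type spleens; its part in these values was not tested. No alternative of the scaling, the background, the slide or the samples used brought a member past the threshold here. The alternative with female wild-type spleens only gave the same differences, so it is not a separate check. For Tert the 95% interval was −0.46 to 0.20, and for Tinf2 −0.17 to 0.29. The fitted Tinf2 difference was 0.06, while its means over all spleens were 0.96 in knockout and 0.75 in wild-type spleens.

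Terf2ip was below every wild-type spleen in 5 of 6 knockout spleens, all but replicate 4. Its probe A_51_P400335 separated the genotypes without overlap, spanning −2.39 to −2.08 in knockout and −2.02 to −1.53 in wild-type spleens (−0.42 ± 0.12, limma adjusted p = 0.0766). The genotypes overlapped for A_52_P381806, the probe used for the gene, and for A_52_P381813, at −0.26 ± 0.17 (limma adjusted p = 0.445). The share of all probes that lay apart is not given here. The ratio of Terf2ip to Terf2 within an array was −1.64 ± 0.14 in knockout spleens and −1.18 ± 0.19 in wild-type spleens. It was lower in knockout spleens by 0.46 (exact permutation test, adjusted p = 0.00524), and by 0.42 with the mean of all probes (exact adjusted p = 0.00524). That test has no term for sex: the knockout spleens, all female, spanned −1.80 to −1.49, the 3 female wild-type spleens stood at −1.51, −0.98 and −1.14, and the 4 males at −1.05, −1.21, −1.01 and −1.34. The same ratio in lines was −0.96 ± 0.23, higher by 0.68 than in knockout spleens (exact permutation test, adjusted p = 0.0018) and by 0.22 than in wild-type spleens (exact adjusted p = 0.0879). With the mean of all probes these differences were 0.29, with overlapping groups (exact adjusted p = 0.0288), and −0.14 (exact adjusted p = 0.222).

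Other telomere genes were read from lists of known factors, whose counts stand beside 41.5% of all genes called higher and 28.9% lower against knockout spleens, 40.3% and 30.9% against wild-type spleens, and medians over all genes of 0.18 and 0.14. The CST complex and its polymerase partner, which fill in the end, had 5 of 5 genes higher in lines than in knockout spleens and 4 of 5 higher than in wild-type spleens, with median log2 differences of 1.17 and 1.20. Pola1, the polymerase, rose by 1.73 and 2.04, Prim1, the primase, by 1.65 and 1.90, and Ctc1, the largest CST subunit, by 1.17 and 1.20. With normexp background correction 3 of 5 were called in each comparison, and the share of all genes called there is not given here.

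Factors that assemble telomerase or bind its RNA had 11 of 13 genes higher and 1 lower in both comparisons, with medians of 0.93 and 1.02. Shq1, a chaperone of dyskerin, rose by 1.48 and 1.51, Parn, which trims the RNA's tail, by 1.21 and 1.30, and Gar1, an H/ACA protein, by 1.15 and 1.28. Tep1, a telomerase-associated protein also found in vaults, fell by 1.04 and 1.05 with groups apart, and was also lower under median centring (−0.45 and −0.47). Several of these factors also serve other small nucleolar RNAs.

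Genes that process or replicate the end had 10 of 13 higher and 2 lower in both comparisons, with medians of 0.83 and 0.92. Exo1, a resecting nuclease, rose by 1.73 and 2.28, Blm, a helicase, by 1.20 and 1.72, and Wrn, another helicase, by 1.13 and 1.27. Dclre1b, the Apollo nuclease that binds TERF2, fell by 0.73 and 0.93, and Samhd1, a dNTP hydrolase, by 0.51 and 0.75; neither was called lower under median centring, where Samhd1 stood at 0.08 and −0.18. The list of tankyrases, chromatin factors and other regulators had 4 of 11 higher and 1 lower against knockout spleens and 5 higher and 2 lower against wild-type spleens, with medians of 0.28 and 0.34, so its share called higher was near that of all genes. Its counts moved with the processing. Against knockout spleens median centring called 10 higher and 0 lower, quantile normalisation 4 and 3, and normexp 1 and 1. Against wild-type spleens these gave 9 and 0, 4 and 2, and 4 and 1. The shares of all genes called under these alternatives are not given here. Sirt6, a deacetylase, rose by 0.88 and 0.78, Suv39h1, a histone methyltransferase, by 0.75 and 0.71, and Nek7, a kinase, by 0.58 and 0.57. Zbtb48, a telomere-binding zinc finger protein, fell by 0.50 and 0.98, though under median centring it was not called, at 0.09 and −0.40.

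The proliferation genes moved with these lists: 14 of 15 were higher in lines in both comparisons, with medians of 1.83 and 2.71, and their mean level was 2.94 to 4.46 in lines against 0.96 to 2.35 over all spleens. Their part in the rise of the telomere lists was not tested. Between genotypes 1 of 13 end processing genes and 1 of 11 regulators passed the test, and none of the 5 CST or 13 assembly genes did, beside 1.64% of all genes called higher and 2.16% lower. Nbn, of the MRE11 complex that activates ATM, was higher in knockout spleens by 0.39 ± 0.09 (limma adjusted p = 0.0308), and Zbtb48 was lower by 0.54 ± 0.13 (adjusted p = 0.0356). Median centring ended both calls (adjusted p = 0.109 for Nbn and 0.0714 for Zbtb48), as did normexp, and a slide term ended that of Zbtb48 (adjusted p = 0.103).

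After the mean of each group was taken off, the 22 samples showed which genes varied most like each member, given here as a description over 13730 genes that share arrays and scaling. Rtel1 was closest to Aaas and Nol9, with r of 0.932 and 0.928. Pot1a was closest to D11Wsu47e and Golm1, with r of 0.917 and 0.891. Further closest genes were Thrsp and Orm3 for Terf1 (0.80 and 0.794), Zhx2 and Aatf for Terf2ip (0.813 and 0.81), Dus4l and Ptms for Pot1b (0.812 and 0.79), Cd300c2 and Thtpa for Tinf2 (0.816 and 0.779) and Hrh3 and Cand2 for Tert (0.774 and 0.749). Among the members themselves, r was 0.533 for Terf2 with Terf2ip, 0.516 for Terf2ip with Rtel1 and −0.677 for Terf2 with Pot1b, while Pot1a with Pot1b came to 0.186.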

How the data were processed

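Gene expression was measured in 22 samples on 23 arrays. Per the file headers, the authors' scanner files are output of Agilent Feature Extraction 10.7.1.1 and give each spot's intensity after background subtraction. The deposited value table gives log2 values of the same arrays and has every probe centred on a median of 0. In differences between arrays its correlation with the scanner signals rounded to 1. This table was tried as an alternative. Control spots (1639 per array) and flagged spots (1556 over all arrays) were dropped, and no spot was saturated. Signals were taken to log2 and averaged per probe, and the log2 of the array's 75th percentile was subtracted. Symbols came from RefSeq accessions (26690 of 41174 probes matched). Genes entered the fit where a probe was well above background in at least 6 samples, and the probe with the highest mean level represented it. Between 54.87% and 67.65% of spots per array were well above background, and the number of arrays limits the precision.

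One limma model (version 3.58.1, R 4.3.3, with the data.table package, version 1.17.8) held the 3 groups, with the 2 arrays of line 8 averaged. The genotype comparison was fitted on the 13 spleens with genotype and sex, which makes its estimate that of knockout against female wild-type spleens. P-values were adjusted by Benjamini-Hochberg over 13765 genes at 0.05. Ratios and correlations used exact two-sided permutation tests in Python 3.11.15 with NumPy 2.4.6. Labels do not say that the lines came from separate mice, so p-values measure the spread between these samples. On simulated data, 100 genes among 13765 were shifted by a log2 change of 0.5. The fit called 18 of them for lines against knockout spleens, 24 for lines against wild-type spleens and 2 between genotypes. At a change of 1 it called 57, 61 and 29. Far more genes were called in the real comparisons of lines with spleens, such as 41.5% higher and 28.9% lower against knockout spleens. The adjusted threshold is then less strict, so the simulated counts for lines do not give the power of those tests.

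Alternatives were median centring, quantile normalisation, normexp background correction (offset 50), no filter, the value table, a slide term, other probes, other treatments of line 8, and each sample left out. The scanner files have no mean signal column, so normexp used the median signal in place of the planned mean. The members and gene lists were chosen with earlier results of these data known. The named genes are the members, up to 3 called genes per direction of each telomere list with the largest difference from knockout spleens, those called between genotypes, Atm, Cd3e, Myc and Terc, and the 2 genes most like each member; for Terf2 these are not reported here.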

Additional observations from a re-analysis of the deposited data

Results flagged for a closer look

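Of 36 groups of member levels, Terc levels and ratios examined, 4 had 1 sample set apart from the rest by a gap that is wide against the group's range; chance flags about 1 group in 20. In knockout spleens, replicate 4 was the highest of 6 for Pot1a, at 3.268 with a gap of 0.201 to the next, and for Terf2ip, at −0.043 with a gap of 0.406. That spleen also had the lowest Terc level of its group, at −3.25. Replicate 1 of the knockout spleens was the highest of 6 for Tinf2, at 1.269 with a gap of 0.288. Without it, the Tinf2 difference between genotypes was −0.004, against 0.06 with it. Among the lines, line 7 was the lowest of 9 for Pot1b, at −5.494 with a gap of 0.735. It was the 1 line whose Pot1b probe was not well above background, and on its array the lowest level well above background was −5.26.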

How the results depend on the processing

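The calls of Tinf2 and Terf1 as higher in lines held in both comparisons under every alternative that gave a test. Median centring, under which the median of all genes was 0.77 against knockout spleens and 0.71 against wild-type spleens, called 7 members higher and 0 lower in each and gave Terf2 differences of 0.511 and 0.55. Quantile normalisation called Terf2 lower against knockout spleens (−0.259, adjusted p = 0.0438) and no longer called Pot1b. The count called lower was 0 against wild-type spleens with quantile normalisation, 0 in both with normexp and 0 against knockout spleens with a slide term. The shares of all genes called under these alternatives are not given here, so the counts are not read as results about the members. With normexp, Pot1b stood at 0.149 against knockout spleens, and Terf2 at 0.018 and Tert at −0.272 against wild-type spleens. With line 8 from its first array Tert stood at −0.022 against wild-type spleens. The other Terf2 probes gave 0.679, 0.016 and 0.847 against knockout spleens, 0.686, 0.007 and 0.833 against wild-type spleens, and −0.039 and −0.033 between genotypes. Within slide 3 Rtel1 differed by −0.346 from knockout and −0.048 from wild-type spleens, and within slide 4 Terf2ip by −0.126 from knockout spleens.

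Leaving out 1 sample at a time kept every called member's call and sign. Uncalled differences that crossed 0 were Terf2, from −0.069 to 0.024 against wild-type spleens and −0.028 to 0.175 between genotypes, Tert, from −0.041 to 0.107 against wild-type spleens, and Tinf2, from −0.004 to 0.084 between genotypes. Pot1a was called when line 2, 3 or 7 was left out. The ratio of Pot1b to Pot1a was −0.089 and −1.279 with normexp, uncalled. With all probes the ratio of Terf2 to Terf1 was −0.223 and −0.053, uncalled, and that of Terf2ip to Terf2 was 0.287 against knockout spleens, still called, and −0.135 against wild-type spleens. Among correlations over lines that were not called, Pot1b with proliferation came to 0.381 with median centring and 0.06 with quantile normalisation, Tert to 0.38 and 0.06, and Tert with Myc to −0.231 with normexp. The causes were not tested. No paired analysis was possible because the labels give no replicate numbers shared between groups.

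Each group is of one tissue state, so culture, tumour and cell composition cannot be told apart in the comparisons of lines with spleens. For the dim Pot1b and Tert probes the background treatment turned the sign of a difference. The scaling of the arrays changed how many members counted as higher.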
